A study of Mus musculus with 19 samples.

Results

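The genes described here encode the nuclear subunits of the mitochondrial respiratory chain, complexes I to IV. Members were the 66 of 47643 gene symbols in the table that begin with Nduf followed by a, b, c, s or v and a number, with Uqcr, with Cox4 to Cox8, or that read Sdha to Sdhd. No name ending in ps or rs had to be left out. By name alone, 36 were counted under complex I, 4 under complex II, 8 under complex III and 18 under complex IV. Every Nduf name, Ndufa4 included, was put under complex I whatever complex its protein sits in. Of the 66 members, 62 reached at least 1 TPM in at least 4 libraries and were tested. TPM are transcript levels corrected for gene length, and every library sums to 1000000.

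The study measured gene expression in mouse cortex at E14.5 (embryonic day) with a stranded total RNA library kit. Mutants carried GFAP::Cre and SmoM2, so that Cre made under the GFAP promoter, which is active in radial glia of the developing cortex, turned on a constantly active Smoothened, the membrane protein that relays Hedgehog signals. Controls were wildtype. The 19 libraries came from mutant dorsal (4), control dorsal (6), mutant medial (4) and control medial cortex (5), where the protocol text calls the dissected pieces medial or lateral.

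Complex I passes electrons from NADH to ubiquinone and complex II from succinate, complex III hands them on to cytochrome c, and complex IV delivers them to oxygen. The core subunits of complex I that are encoded in the nucleus include those that hold the flavin and the iron-sulfur clusters, while the other nuclear members surround and stabilise the enzyme. The catalytic centres of complexes III and IV are partly encoded in mitochondrial DNA, and several small complex IV subunits exist as isoforms used in different tissues. In neural development, progenitor cells are known for a larger reliance on glycolysis and neurons for a larger reliance on this chain.

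Whether each library of a group comes from its own embryo is not stated in the labels, and p-values therefore reflect only library-to-library spread, part of which may be technical. Smo, whose active form the mutants carry, was at 130 ± 20.8 TPM in mutant dorsal and 83.8 ± 6.72 TPM in control dorsal cortex, and at 170 ± 10.5 TPM in mutant medial and 122 ± 11.8 TPM in control medial cortex (SD), with every mutant library above the controls of its region. Whether transcripts of the SmoM2 allele were counted under Smo is not stated. Gli1, a transcription factor gene switched on by Hedgehog signalling, was at 35.0 ± 5.44 TPM in mutant dorsal and 0.586 ± 0.268 TPM in control dorsal cortex (SD, n = 4 and 6), and at 37.2 ± 9.94 TPM in mutant medial and 0.398 ± 0.135 TPM in control medial cortex (SD, n = 4 and 5). All mutant embryos were male by Xist and Ddx3y, and control embryos 2, 3 and 4 were female, so sex enters the alternatives below. Marker counts here can be read against all tested genes (limma, adjusted p below 0.05). Of those, 9.93% were higher and 27.6% lower dorsally, and 9.44% higher and 30.2% lower medially. Neuron markers summed to 3794 to 5626 TPM in mutant dorsal against 5919 to 6708 TPM in control dorsal libraries. Medially they summed to 2698 to 3503 TPM in mutant against 3929 to 5088 TPM in control libraries. Of 12 neuron markers, 9 were lower dorsally and 10 medially. Radial glia markers were higher for 7 of 11 and lower for 2 dorsally, and higher for 5 and lower for 1 medially. Their sums overlapped in both regions. They were 2825 to 3039 TPM in mutant dorsal against 2611 to 2956 TPM in control dorsal libraries. Medially they were 3279 to 3662 TPM in mutant against 3283 to 4010 TPM in control libraries. Dorsally, 4 of 7 microglia and 3 of 7 pericyte markers were also lower. Microglia markers summed there to 34.3 to 43.0 TPM in mutant against 49.96 to 69.7 TPM in control libraries. Pericyte markers summed to 49.4 to 69.3 TPM in mutant against 72.9 to 88.7 TPM in control libraries. Medially, 2 of 7 pericyte markers were lower and no microglia marker passed, and both sums overlapped. They were 51.2 to 68.8 TPM in mutant against 68.1 to 84.6 TPM in control libraries for pericytes. For microglia they were 34.3 to 81.5 TPM in mutant against 43.6 to 68.1 TPM in control libraries. Of 7 interneuron markers, 5 were lower medially and none passed dorsally. Their medial sums were 2.38 to 17.9 TPM in mutant against 14.6 to 34.2 TPM in control libraries. Of 8 stress and RNA quality genes, 3 were higher and 1 lower medially and none passed dorsally, with sums of 549 ± 98.9 TPM in mutant medial and 433 ± 19.5 TPM in control medial cortex (SD, n = 4 and 5), and 493 ± 82.2 TPM in mutant dorsal and 411 ± 19.9 TPM in control dorsal cortex (SD, n = 4 and 6). In bulk tissue, fewer cells of a type and less RNA per cell cannot be told apart, and the part of these shifts in the results below was not tested.

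Promoter sequences of 5 members that passed the test in at least 1 comparison are shown, because the results below turn on these members and because they include promoters with and without a motif match. They run from 250 bases before to 50 bases after the RefSeq gene start (GRCm38.p6), 5′ to 3′ on the coding strand. Capitals mark matches to GCGCATGCG, the core of the site bound by NRF1, or to CCGGAAG, the core bound by ETS factors such as GABP, on either strand. Ndufa8 (chr2:36049289-36049588, minus strand) holds an NRF1 match on the opposite strand from position -9, counted with the base of the gene start as 0. Ndufs3 (chr2:90904672-90904971, minus strand) holds ETS matches from positions -27 and 1, the second on the opposite strand, and Cox7a2l (chr17:83514284-83514583, minus strand), Ndufv3 (chr17:31519865-31520164, plus strand) and Cox6b2 (chr7:4753045-4753344, minus strand) hold none.
Ndufa8: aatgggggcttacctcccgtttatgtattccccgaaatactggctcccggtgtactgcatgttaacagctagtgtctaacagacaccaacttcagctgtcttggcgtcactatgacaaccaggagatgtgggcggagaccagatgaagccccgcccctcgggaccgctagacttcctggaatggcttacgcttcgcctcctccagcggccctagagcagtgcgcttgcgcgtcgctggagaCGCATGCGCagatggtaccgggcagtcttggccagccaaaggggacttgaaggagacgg
Ndufs3: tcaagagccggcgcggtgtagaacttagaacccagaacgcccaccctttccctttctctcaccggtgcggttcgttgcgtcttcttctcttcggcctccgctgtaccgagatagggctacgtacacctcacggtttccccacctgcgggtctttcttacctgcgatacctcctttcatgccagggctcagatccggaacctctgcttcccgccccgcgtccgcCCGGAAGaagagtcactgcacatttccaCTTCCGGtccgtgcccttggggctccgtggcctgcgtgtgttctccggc
Cox7a2l: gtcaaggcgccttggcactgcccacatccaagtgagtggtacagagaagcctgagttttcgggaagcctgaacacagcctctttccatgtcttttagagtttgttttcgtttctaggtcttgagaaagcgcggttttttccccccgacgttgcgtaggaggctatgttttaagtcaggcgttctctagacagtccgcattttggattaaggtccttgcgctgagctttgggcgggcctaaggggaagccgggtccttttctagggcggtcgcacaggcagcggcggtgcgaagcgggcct
Ndufv3: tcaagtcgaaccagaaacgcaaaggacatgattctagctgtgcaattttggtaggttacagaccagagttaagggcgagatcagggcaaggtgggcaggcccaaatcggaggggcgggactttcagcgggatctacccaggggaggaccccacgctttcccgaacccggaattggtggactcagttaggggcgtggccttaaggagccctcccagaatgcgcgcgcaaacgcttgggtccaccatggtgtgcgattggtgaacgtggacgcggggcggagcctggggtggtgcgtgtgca
Cox6b2: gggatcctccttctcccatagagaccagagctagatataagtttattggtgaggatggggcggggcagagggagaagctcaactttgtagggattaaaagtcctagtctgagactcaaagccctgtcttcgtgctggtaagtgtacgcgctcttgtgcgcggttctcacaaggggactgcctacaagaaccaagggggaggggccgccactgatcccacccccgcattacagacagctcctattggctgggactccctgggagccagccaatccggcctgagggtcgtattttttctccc

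A promoter was at hand for 53 of the 66 members. The NRF1 letters were present in 5 of these 53 (9.43%), against 4.21% of 9979 tested genes with a promoter in the table and 1.95% of all 27025 genes there. The ETS letters were present in 11 members (20.8%), against 19.7% of the tested genes and 9.93% of all. AAGATGGCG, the core of the YY1 site, was present in 5 members (9.43%), against 3.61% and 1.64%. No match of 1 motif overlapped a match of another. The members are spread over 19 chromosomes, and their exons are short, with a median summed length of 1271 bases against 4406.5 bases for the tested genes (GENCODE M21).

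Most members were abundant. Their mean over all libraries had a median of 179 TPM across the 62 tested members, against 22.3 TPM across all 13520 tested genes, and 49 members stood at or above 100 TPM. Cox6b1, a complex IV subunit on the outer face of the inner membrane, was the most abundant member at a mean of 695 TPM, followed by Cox7a2l at 604 TPM and Cox8a at 601 TPM, which lie within their spread over libraries. In complex I the levels ran from 482 TPM for Ndufc2 to 24.3 TPM for Ndufb2. In complex II they ran from 206 TPM for Sdhd to 93.8 TPM for Sdhc, and in complex III from 417 TPM for Uqcrh to 60.5 TPM for Uqcrq.

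**Figure D1:**
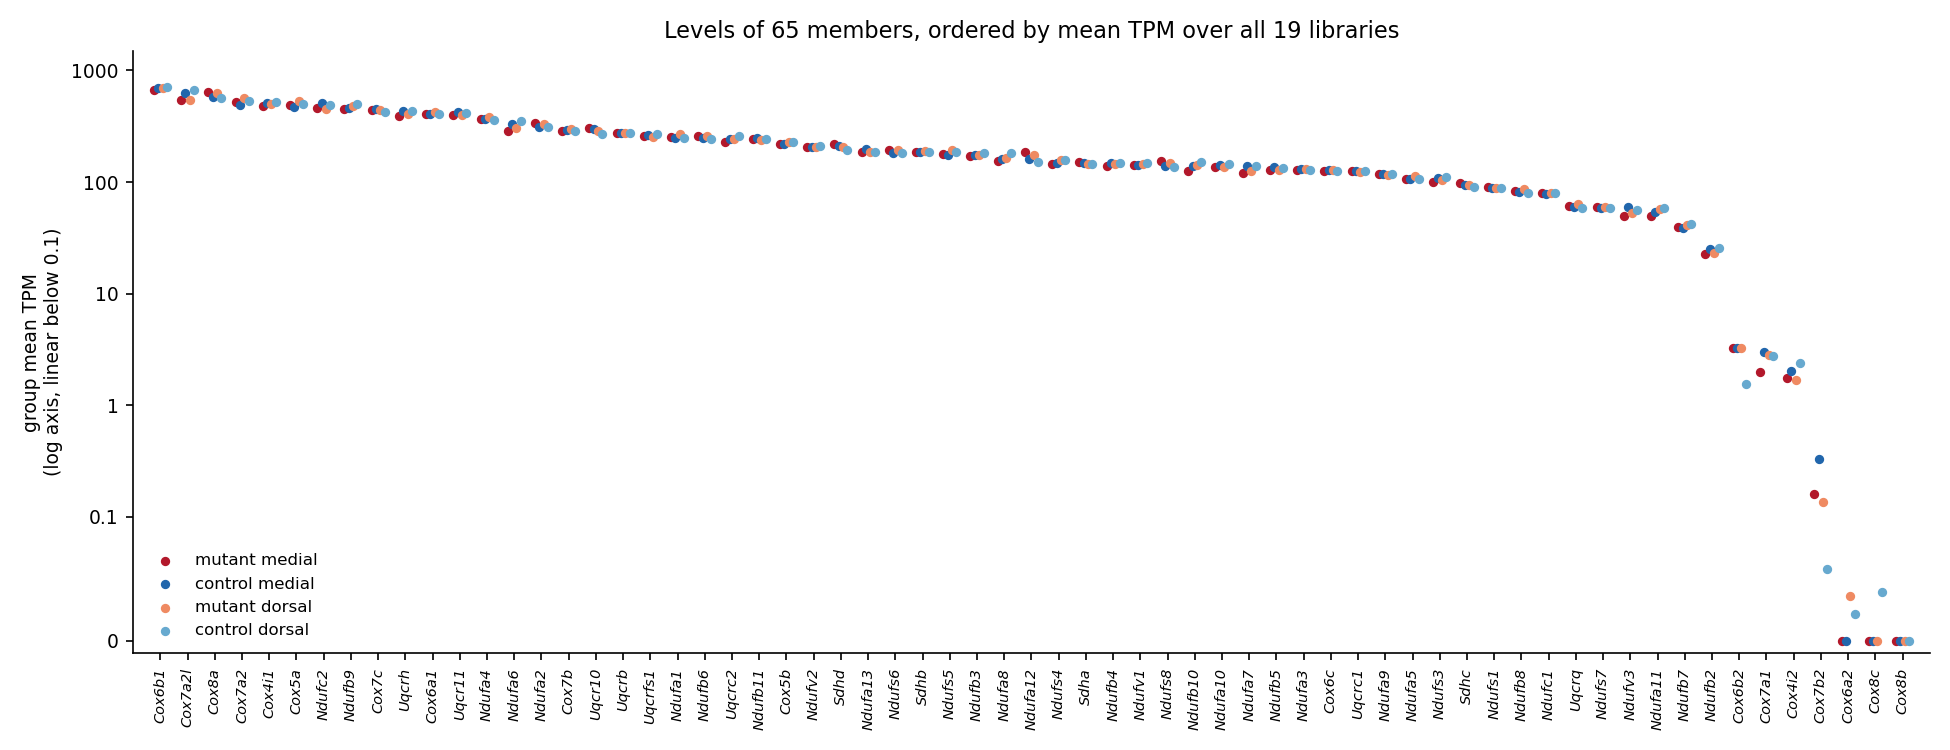
Mean TPM of 65 members in each group (log axis that is linear below 0.1), ordered by the mean over all 19 libraries. Levels run from Cox6b1 at 695 TPM to Ndufb2 at 24.3 TPM, and 7 complex IV isoforms lie apart below 10 TPM.

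A total of 7 members lay below 10 TPM, and all 7 are tissue-restricted isoforms of complex IV subunits. Cox6b2, known as a testis isoform, averaged 2.72 TPM, Cox7a1, a heart and muscle isoform, 2.66 TPM, and Cox4i2, a lung isoform linked to oxygen sensing, 2.00 TPM over all libraries. The other 4 did not pass the filter. Cox7b2 was above 0 in 11 of 19 libraries with at most 0.628 TPM, Cox6a2, a heart and muscle isoform, in 2 libraries with at most 0.144 TPM, and Cox8c in 1 library with 0.237 TPM. Cox8b, another heart and muscle isoform, was listed at 0 in all 19 libraries. None of 8 skeletal muscle markers passed the filter, and their sum was 0.445 to 1.13 TPM in mutant dorsal, 0.549 to 1.24 TPM in control dorsal, 0.509 to 1.18 TPM in mutant medial and 0.912 to 1.69 TPM in control medial libraries.

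The summed level of all members overlapped between the genotypes. It was 13982 ± 330 TPM in mutant dorsal and 14097 ± 739 TPM in control dorsal cortex (SD, n = 4 and 6), and 13692 ± 710 TPM in mutant medial and 13956 ± 453 TPM in control medial cortex (SD, n = 4 and 5). That is 1.32 to 1.496% of each library. Complex II summed to 631 ± 20.8 TPM in mutant dorsal and 614 ± 27.0 TPM in control dorsal cortex, and to 653 ± 24.6 TPM in mutant medial and 639 ± 17.0 TPM in control medial cortex. Complex III summed to 2048 ± 65.7 TPM in mutant dorsal and 2100 ± 128 TPM in control dorsal cortex, and to 2039 ± 123 TPM in mutant medial and 2113 ± 75.6 TPM in control medial cortex. Complexes I and IV likewise overlapped, at 6309 ± 148 and 4995 ± 121 TPM in mutant dorsal, 6390 ± 326 and 4992 ± 262 TPM in control dorsal, 6180 ± 322 and 4820 ± 246 TPM in mutant medial and 6319 ± 196 and 4886 ± 174 TPM in control medial cortex.

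Within groups the sum moved from library to library. Control dorsal libraries 2, 4 and 6 held 14934, 14315 and 14960 TPM of members, and control dorsal libraries 1, 3 and 5 held 13530, 13415 and 13425 TPM. The 13 subunits encoded in mitochondrial DNA ran the other way, with 22216, 27692 and 21923 TPM in libraries 2, 4 and 6 and 28774, 34891 and 35582 TPM in libraries 1, 3 and 5. Mutant medial library 1 had the highest member sum of its group, 14731 TPM, and the lowest mitochondrially encoded sum of all, 18660 TPM. TPM are shares of a fixed total, and what moves these sums from library to library was not tested.

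**Figure D2:**
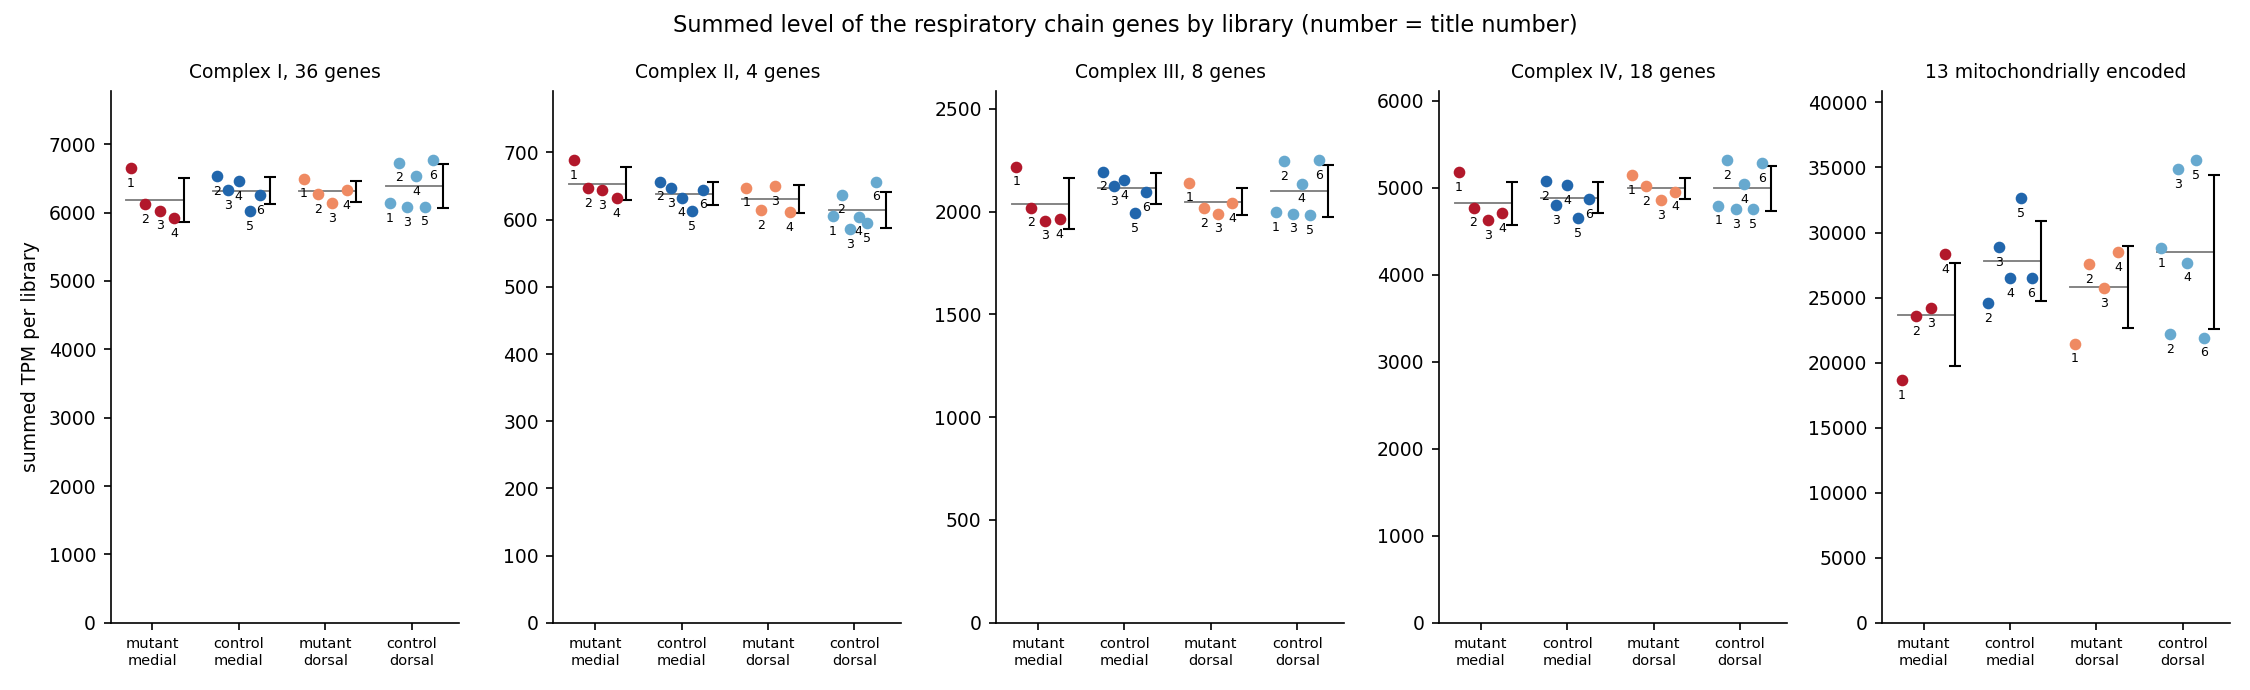
Summed TPM of the members by complex, and of the 13 mitochondrially encoded subunits, in every library, with title numbers, the group mean (line) and SD (bar). Mutant and control libraries overlap in all 5 panels, and control dorsal libraries 2 and 6 are high for complexes I, III and IV and low for the mitochondrially encoded subunits.

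Between mutants and controls, few members differed. In dorsal cortex 1 member was higher in mutants and 6 were lower, 11.3% of the 62, against 37.5% of all tested genes (9.93% higher and 27.6% lower; limma, Benjamini-Hochberg adjusted p below 0.05). In medial cortex none was higher and 8 were lower, 12.9% against 39.6% of all tested genes (9.44% higher and 30.2% lower). The members called are thus a smaller share than among all genes in both regions. The median log2 change of the members was -0.01 in dorsal and -0.02 in medial cortex, against -0.10 and -0.11 over all tested genes, and every log2 change here is on the log2(TPM + 1) scale. Libraries of mutants and controls did not overlap for 5 members dorsally, all lower in mutants, against 24.8% of all tested genes (7.25% higher and 17.6% lower). They did not overlap for 8 members medially, 7 lower and 1 higher, against 30.4% of all tested genes (7.63% higher and 22.7% lower).

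The median standard error of a member's log2 change was 0.055 in dorsal and 0.057 in medial cortex, and the 95% confidence interval lay within ±0.3 for 54 of 62 members in each region and within ±0.5 for 60 in dorsal and 59 in medial cortex. The exceptions at ±0.5 were the low isoforms Cox4i2 and Cox6b2, and medially also Cox7a1. Only Cox6b2 had an estimate above 0.5 in size (1.61% of members in dorsal cortex, against 10.1% of tested genes), and no member did in medial cortex (against 12.9%).

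**Figure D3:**
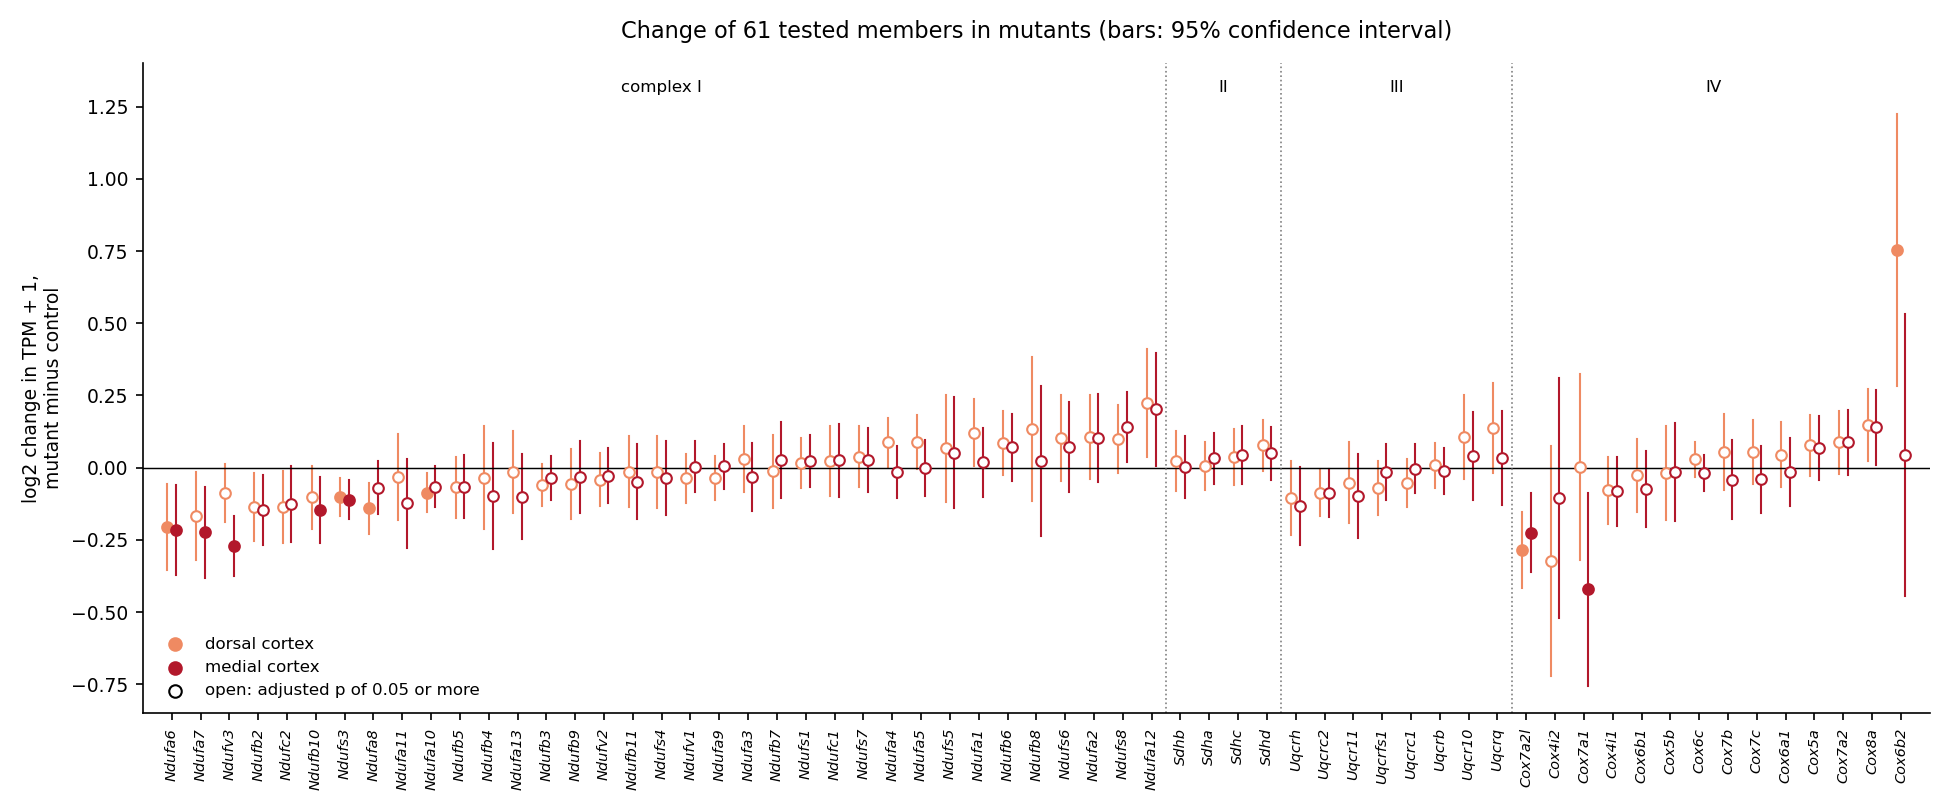
Log2 change of TPM + 1 of 61 tested members, mutant minus control, with its 95% confidence interval, in dorsal and medial cortex; filled points passed the adjusted p of 0.05. Most intervals cross 0, and the filled points lie below it except Cox6b2 in dorsal cortex; with libraries rescaled by a median ratio, the estimate of Ndufa10 dorsally lies just above 0.

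Complex I, with 36 of the 62 tested members, held 5 of the 7 calls in dorsal and 6 of the 8 in medial cortex. All of these were lower in mutants. They are 13.9% and 16.7% of its members, near the 14.3% of the 14 tested complex IV members called in each region. Of all tested genes, 37.5% were called dorsally and 39.6% medially. Ndufs3, a core subunit of the arm that reaches into the matrix, had 102, 106, 102 and 104 TPM in mutant dorsal libraries, against 106 to 115 TPM in control dorsal libraries (median 111 TPM). In medial cortex it had 102, 98.3, 101 and 97.2 TPM in mutant libraries, against 108, 106, 108, 107 and 110 TPM in control libraries. The groups did not overlap in either region, narrowly so dorsally, and the log2 changes were -0.10 ± 0.03 (adjusted p = 0.0166) and -0.11 ± 0.03 (adjusted p = 0.0114, both by limma). The medial call held in all 19 fits without 1 library, and the dorsal call was lost without mutant dorsal library 1 (adjusted p = 0.0529) or 3 (adjusted p = 0.0517). Both calls were lost under all 4 other scalings of the libraries (median ratio, quantile, rescaled after dropping histone, mitochondrial and small RNA names, and rescaled to the members' sum), and with median-ratio rescaling the log2 changes were -0.0082 dorsally (adjusted p = 0.894) and -0.0058 medially (adjusted p = 0.926). The exons of Ndufs3 overlap a gene on the opposite strand, Kbtbd4, and whether counting used the strand is not given in the sources used here. The core subunits Ndufs1, Ndufs7, Ndufs8, Ndufv1 and Ndufv2 did not pass the test, with log2 changes between -0.04 (Ndufv2, dorsal) and 0.14 (Ndufs8, medial). Ndufs8, which carries iron-sulfur clusters, had 157, 149, 155 and 156 TPM in mutant medial libraries, against 149, 140, 144, 124 and 144 TPM in control medial libraries, so that mutants lay above controls by a narrow margin, at an adjusted p of 0.0616 (limma).

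Among the accessory subunits, Ndufv3, a small subunit attached near the flavin site, showed the clearest difference in medial cortex. It was at 55.1, 48.4, 47.7 and 47.6 TPM in mutant medial libraries, against 62.9, 57.5, 62.7, 59.2 and 58.5 TPM in control medial libraries. No libraries overlapped, although mutant medial library 1 stood above the other 3. The log2 change was -0.27 ± 0.05 (adjusted p = 0.00039 by limma), and it passed the threshold in all 19 fits without 1 library and under all 12 alternatives tried. In dorsal cortex Ndufv3 averaged 53.1 ± 2.69 TPM in mutants and 56.5 ± 2.45 TPM in controls (SD, n = 4 and 6), a log2 change of -0.09 ± 0.05 with overlapping libraries (adjusted p = 0.16 by limma).

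Ndufa6, an accessory subunit of the LYR motif family, passed in both regions. It had 316, 318, 290 and 298 TPM in mutant dorsal libraries, against 306 to 395 TPM in control dorsal libraries (median 356 TPM), and 313, 305, 264 and 268 TPM in mutant medial libraries, against 325, 359, 349, 314 and 319 TPM in control medial libraries. The dorsal libraries overlapped and the medial ones did not, narrowly. The log2 changes were -0.21 ± 0.07 (adjusted p = 0.0305) and -0.22 ± 0.07 (adjusted p = 0.0269, both by limma). The dorsal call was lost without control dorsal library 2, 4 or 6 or mutant dorsal library 3 or 4 (adjusted p = 0.0516 to 0.0956), and the medial call when control medial 3 or 4 or mutant medial 3 or 4 was left out (adjusted p = 0.0597 to 0.0948). Both calls were lost with median-ratio rescaling (-0.11 in each region, adjusted p = 0.345 dorsally and 0.366 medially), with histone, mitochondrial and small RNA names dropped (adjusted p = 0.155 and 0.126) and with sex as a covariate (adjusted p = 0.138 and 0.169).

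Ndufa8, an accessory subunit imported into the intermembrane space, whose promoter with an NRF1 match is printed above, had 162, 172, 156 and 168 TPM in mutant dorsal libraries, against 173 to 193 TPM in control dorsal libraries (median 180 TPM). Mutants lay below all controls, with a log2 change of -0.14 ± 0.04 (adjusted p = 0.0137 by limma), which was lost without mutant dorsal library 3 (adjusted p = 0.0603). It was also lost with median-ratio rescaling (-0.048, adjusted p = 0.55), quantile normalization (-0.10, adjusted p = 0.0695) and with those names dropped (-0.067, adjusted p = 0.229). Medially Ndufa8 averaged 154 ± 8.42 TPM in mutants and 161 ± 5.91 TPM in controls (SD, n = 4 and 5; adjusted p = 0.223 by limma).

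Ndufa7 had 140, 114, 112 and 111 TPM in mutant medial libraries, against 150, 131, 139, 136 and 139 TPM in control medial libraries, with a log2 change of -0.22 ± 0.08 (adjusted p = 0.0242 by limma). Mutant library 1 lay among the controls and the other 3 below them, and leaving out control medial 2 or mutant medial 2, 3 or 4 ended the call (adjusted p = 0.0605 to 0.078). It was also lost with median-ratio rescaling (-0.12, adjusted p = 0.318), quantile normalization, those names dropped and sex as a covariate. Ndufb10 had 131, 116, 125 and 127 TPM in mutant medial libraries, against 142, 132, 143, 134 and 141 TPM in control medial libraries, with a log2 change of -0.15 ± 0.05 (adjusted p = 0.0373 by limma) and no overlap, narrowly. Leaving out control medial 2, 4 or 6 or mutant medial 2, 3 or 4 ended the call (adjusted p = 0.0543 to 0.132), and it held under 5 of 12 alternatives, with -0.042 (adjusted p = 0.672) under median-ratio rescaling. Ndufa10, with a log2 change of -0.09 ± 0.03 in dorsal cortex (adjusted p = 0.0425 by limma), had 142, 135, 134 and 132 TPM in mutant dorsal libraries, against 139 to 150 TPM in control dorsal libraries (median 143 TPM), with the call lost in 7 of 19 fits without 1 library (control dorsal 1, 2, 4 or 6, mutant dorsal 2, 3 or 4; adjusted p = 0.0515 to 0.115). Its direction turned, at 0.0064, with median-ratio rescaling, and the call held under 4 of 12 alternatives. Among the 36 complex I members, Ndufa12, an accessory subunit needed late in assembly, had the highest estimates, 0.22 ± 0.09 dorsally and 0.20 ± 0.09 medially, neither past the test (adjusted p = 0.0564 and 0.0931 by limma).

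As deposited, complexes II and III held no call in either region. With median-ratio rescaling, Sdhd was called higher dorsally and Sdha, Sdhc and Sdhd medially. With histone, mitochondrial and small RNA names dropped, Sdhd was called higher in both regions, and Uqcr10 and Uqcrq dorsally. On the members' sum, Uqcr10 and Uqcrq were called higher dorsally and Uqcrh lower in both regions. The values that follow are as deposited. Sdha, the flavoprotein that oxidises succinate, had 152, 140, 150 and 136 TPM in mutant dorsal libraries, against 138 to 154 TPM in control dorsal libraries (median 142 TPM), and 151, 153, 151 and 152 TPM in mutant medial libraries, against 150, 153, 146, 140 and 154 TPM in control medial libraries. The libraries overlapped in both regions. The 4 Sdh genes had log2 changes between 0.01 (Sdha) and 0.08 (Sdhd) dorsally and between 0.00 (Sdhb, the iron-sulfur subunit) and 0.05 (Sdhd) medially, and their 95% confidence intervals lay between -0.10 and 0.17. Sdhc and Sdhd, which anchor the enzyme in the membrane, did not pass the test as deposited either. In complex III, Uqcrh, the hinge protein next to cytochrome c1, had the lowest estimates, -0.11 ± 0.06 dorsally and -0.13 ± 0.06 medially (adjusted p = 0.191 and 0.107 by limma). Uqcrc2, a core scaffold subunit, had 246, 246, 233 and 240 TPM in mutant dorsal libraries, against 247 to 272 TPM in control dorsal libraries (median 254 TPM), so that the groups did not overlap, at an adjusted p of 0.079 (limma).

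In complex IV, Cox7a2l was lower in mutants of both regions. Its protein is known mainly as the factor that joins complexes III and IV into supercomplexes. It had 575, 595, 486 and 527 TPM in mutant dorsal libraries, against 608 to 716 TPM in control dorsal libraries (median 666 TPM), and 596, 563, 493 and 508 TPM in mutant medial libraries, against 622, 639, 665, 583 and 641 TPM in control medial libraries. All dorsal mutants lay below all dorsal controls, while medially mutant library 1 exceeded control library 5. The log2 changes were -0.29 ± 0.06 (adjusted p = 0.00184) and -0.22 ± 0.07 (adjusted p = 0.0107, both by limma), a fold of 0.821 and 0.856. Both calls held in all 19 fits without 1 library. With median-ratio rescaling both calls were lost, at log2 changes of -0.19 dorsally (adjusted p = 0.0549) and -0.12 medially (adjusted p = 0.248). The medial call was also lost with histone, mitochondrial and small RNA names dropped (-0.15, adjusted p = 0.0553) and with sex as a covariate (-0.18, adjusted p = 0.0646).

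**Figure D4:**
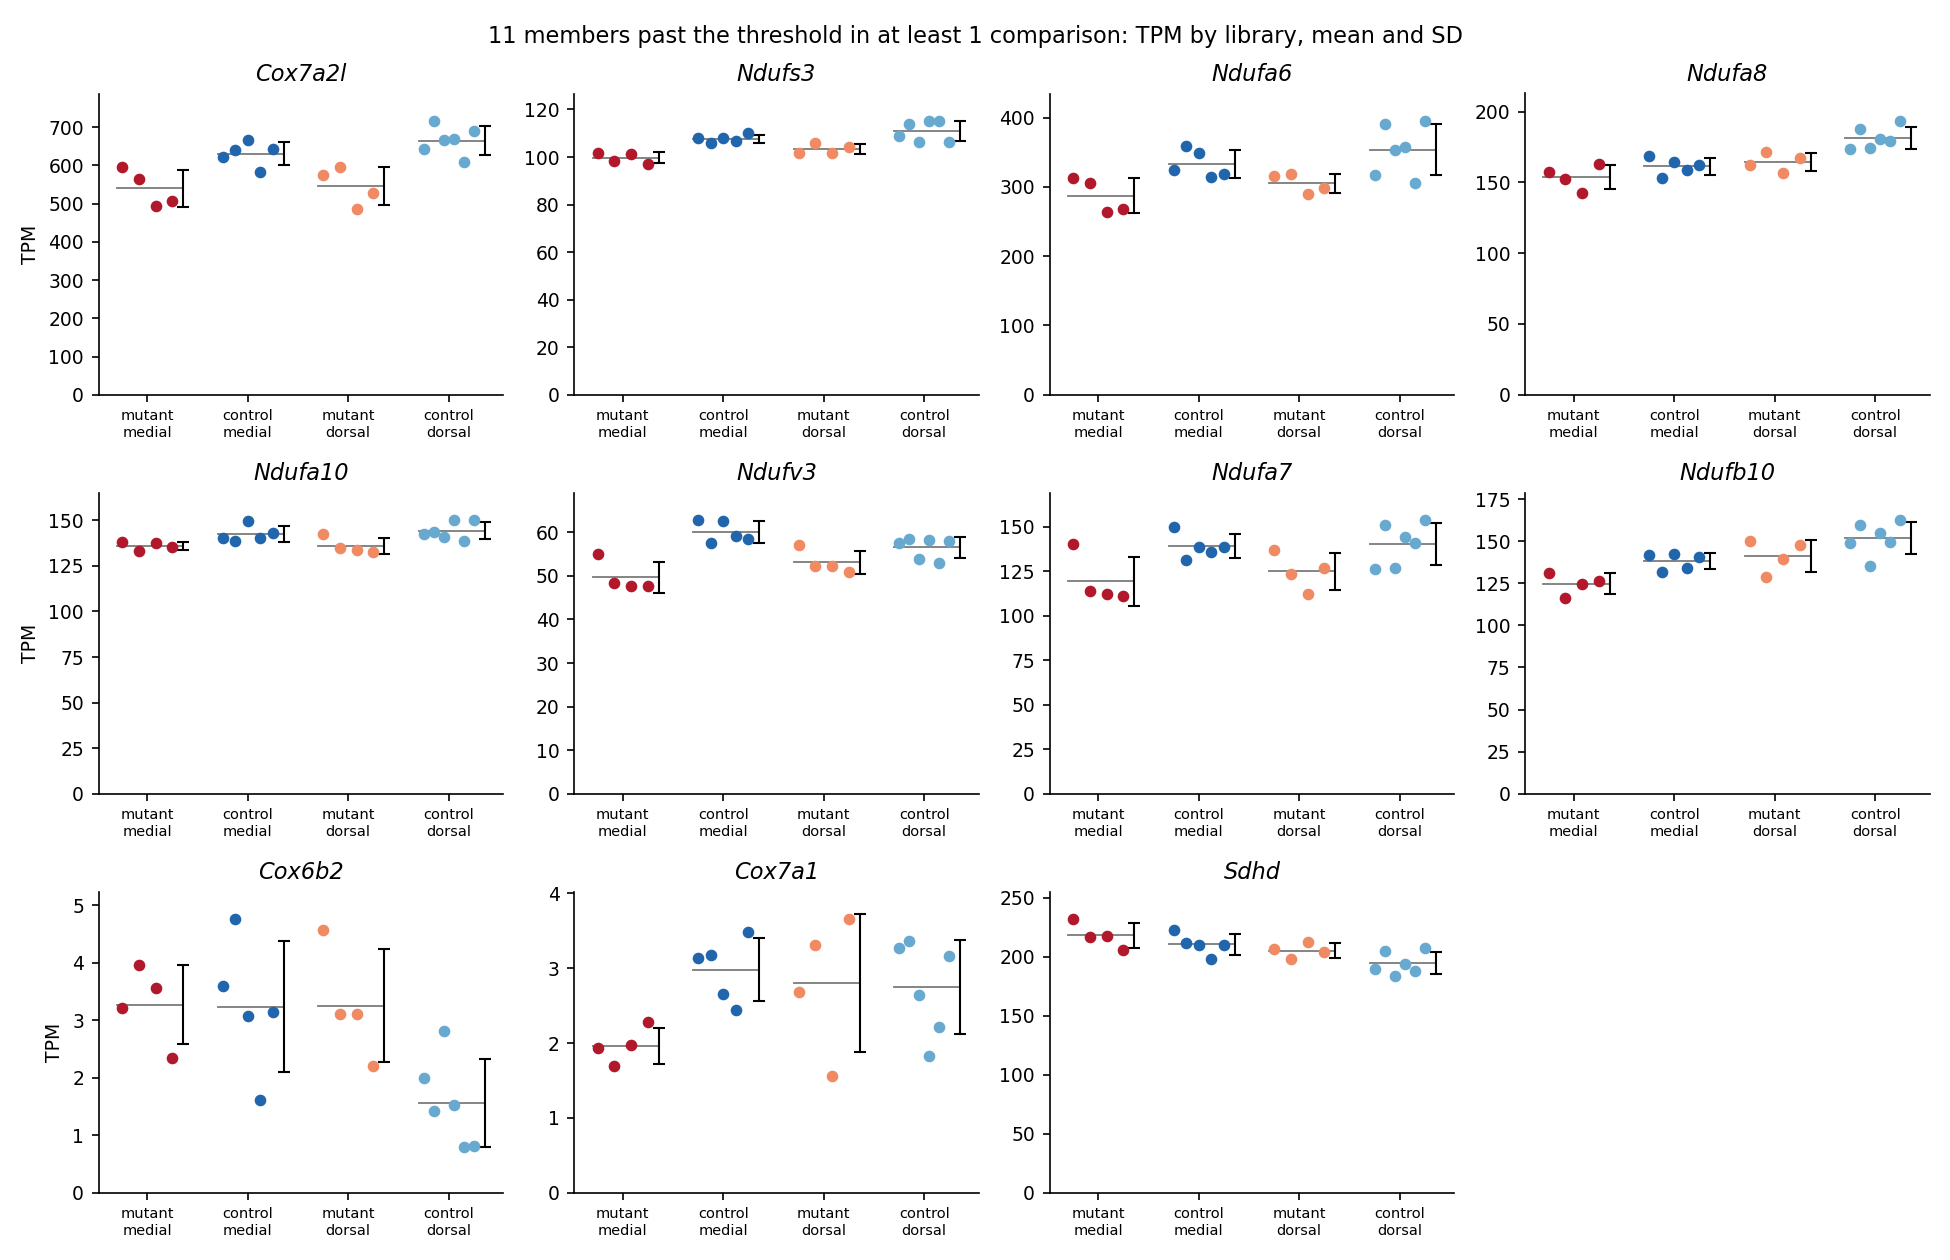
TPM by library of 11 members past the adjusted p of 0.05 in at least 1 comparison, with the group mean (line) and SD (bar), all axes starting at 0. Cox7a2l and Ndufs3 are lower in mutants of both regions as deposited, and Cox6b2 is lowest in the control dorsal libraries.

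The isoforms of complex IV subunits could be set against their partners. Cox6b2 had 4.58, 3.11, 3.12 and 2.21 TPM in mutant dorsal libraries, against 0.804 to 2.81 TPM in control dorsal libraries (median 1.47 TPM). The highest control overlapped the lowest mutant. The log2 change of 0.75 ± 0.22 (adjusted p = 0.013 by limma; a fold of 1.69 in TPM + 1) was lost without mutant dorsal library 1 (adjusted p = 0.06). Cox6b2 made up 0.46 ± 0.113% of the summed Cox6b1 and Cox6b2 level in mutant dorsal and 0.224 ± 0.124% in control dorsal cortex (SD, n = 4 and 6), so Cox6b1, with a log2 change of -0.03 ± 0.06, carried nearly all of it. In medial cortex Cox6b2 averaged 3.27 ± 0.689 TPM in mutants and 3.24 ± 1.13 TPM in controls (SD, n = 4 and 5; adjusted p = 0.901 by limma).

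Cox7a1 was lower in mutant medial cortex. It had 1.93, 1.69, 1.97 and 2.28 TPM in mutant medial libraries, against 3.13, 3.18, 2.66, 2.44 and 3.48 TPM in control medial libraries, which did not overlap. The log2 change of -0.42 ± 0.16 (adjusted p = 0.0433 by limma) held in 11 of 19 fits without 1 library and was lost without control medial 2, 3 or 6, mutant medial 1, 2 or 3, control dorsal 3 or mutant dorsal 1 (adjusted p = 0.0512 to 0.109). It held under 4 of 11 alternatives and was lost under all 4 other scalings (quantile normalization -0.26, adjusted p = 0.229) and with sex as a covariate (adjusted p = 0.0663). Its share of the summed Cox7a1 and Cox7a2 level was 0.377 ± 0.0569% in mutant medial and 0.603 ± 0.0748% in control medial cortex (SD, n = 4 and 5). In dorsal cortex Cox7a1 averaged 2.80 ± 0.922 TPM in mutants and 2.75 ± 0.627 TPM in controls (SD, n = 4 and 6).

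None of the main isoforms passed the test. Cox4i1 and Cox6a1 had log2 changes of -0.08 ± 0.06 and 0.05 ± 0.05 dorsally and -0.08 ± 0.06 and -0.01 ± 0.06 medially. Cox8a had the highest estimates among the abundant complex IV members, 0.15 ± 0.06 dorsally and 0.14 ± 0.06 medially (adjusted p = 0.0562 and 0.0791 by limma). Cox4i2 made up 0.339 ± 0.115% of the summed Cox4i1 and Cox4i2 level in mutant dorsal and 0.453 ± 0.156% in control dorsal cortex (SD, n = 4 and 6). Cox7a2, the liver-type partner of Cox7a1, had a log2 change of 0.09 ± 0.05 in both regions (adjusted p = 0.192 dorsally and 0.205 medially by limma). Reads of close paralogs and of processed pseudogenes, which several of these genes have, could have been shared in the counting.

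The 3 members on the X chromosome did not pass the test in either region. Ndufa1, a small membrane subunit of complex I, had a log2 change of 0.12 ± 0.05 dorsally (adjusted p = 0.0907 by limma), which passed with sex as a covariate (0.17, adjusted p = 0.0281). Ndufb11 and Cox7b had log2 changes of -0.01 ± 0.06 and 0.05 ± 0.06 dorsally and -0.05 ± 0.06 and -0.04 ± 0.07 medially. With sex as a covariate, 3 members were higher and 4 lower in mutant dorsal cortex. In mutant medial cortex 1 was higher and 2 were lower, Ndufs3 and Ndufv3. In the same fit, 1179 of all 13520 tested genes were higher and 3433 lower dorsally, and 1072 higher and 3700 lower medially.

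The mutant effect did not differ between the regions for any member (limma, adjusted p of 1 for each named here), a comparison in which 1 of 13520 genes passed (0.0074%). With the embryo as a block, still no member passed, against 0.362% of all tested genes (0.178% higher and 0.185% lower). Only Ndufv3 and Cox6b2 had a 95% confidence interval of the difference that left out 0, before adjustment. The medial minus dorsal effect was -0.18 ± 0.07 for Ndufv3 (-0.33 to -0.04) and -0.71 ± 0.32 for Cox6b2 (-1.39 to -0.03). For 54 of 62 members the interval of the difference lay within ±0.3. An effect that passed in only 1 region, such as that of Ndufa8 or Cox7a1, is therefore not shown to differ between them.

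Between regions, the medial cortex differed from the dorsal cortex in few members when the pieces of an embryo were treated as independent. With the embryo as a block, 4 members were higher and 8 lower medially in controls, against 48.9% of all tested genes called. In mutants 1 was then higher and 7 lower, against 39.1%. The counts that follow ignore the pairing. In controls, 2 members were higher and 2 lower medially, 6.45% against 32.4% of all tested genes (17.6% higher and 14.9% lower), and in mutants 1 was lower, 1.61% against 18.8% (8.03% higher and 10.8% lower; limma). Ndufa8 had 169, 153, 164, 159 and 162 TPM in control medial libraries, against 173 to 193 TPM in control dorsal libraries (median 180 TPM). No library overlapped, medial cortex was lower in all 5 embryos with both pieces, and the log2 difference was -0.17 ± 0.04 (adjusted p = 0.00362 by limma). In mutants it was -0.10 ± 0.05 (adjusted p = 0.158 by limma) and lower medially in all 4 embryos. The same direction in every embryo was not rare among tested members. In controls 6 were higher and 14 lower medially in all 5 embryos, and in mutants 3 were higher and 13 lower in all 4. The share over all genes was not computed. Cox6b2 had 3.59, 4.77, 3.08, 1.61 and 3.14 TPM in control medial libraries, against 0.804 to 2.81 TPM in control dorsal libraries (median 1.47 TPM), higher in 5 of 5 embryos, with a log2 difference of 0.73 ± 0.21 (adjusted p = 0.0123 by limma). The control dorsal mean of 1.56 TPM was below those of the other 3 groups, which were 3.24 to 3.27 TPM.

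In mutants, medial and dorsal libraries overlapped for every tested member (background 15.2%, 7.11% higher and 8.05% lower). In controls, Ndufa8 and Uqcrc2 lay clear below in medial cortex and none above (background 20.5%, 11.1% higher and 9.39% lower).

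Sdhd was higher medially in controls, at 223, 211, 210, 198 and 210 TPM in control medial libraries, against 184 to 207 TPM in control dorsal libraries (median 192 TPM; log2 difference 0.11 ± 0.04, adjusted p = 0.0336 by limma). That call was lost without control dorsal 1, 3, 4 or 5 or control medial 2, 3, 4 or 6 (adjusted p = 0.0536 to 0.106), with median-ratio rescaling, limma without its trend and robust settings, or no filter on low values (adjusted p = 0.104, 0.0503 and 0.055), while medial cortex was higher in every embryo of either genotype. Ndufb10 was lower medially in controls (-0.13 ± 0.05, adjusted p = 0.0437) and in mutants (-0.18 ± 0.06, adjusted p = 0.0351, both by limma), and in every embryo of either genotype. The control call was lost in 11 of 19 fits without 1 library (adjusted p up to 0.115) and the mutant call without mutant dorsal 1 or 4 or mutant medial 2 or 3 (adjusted p = 0.0805 to 0.114). Each held under 6 of 12 alternatives, with adjusted p up to 0.0959 in controls and 0.106 in mutants.

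Title numbers tie the medial and dorsal pieces of an embryo together (a pairing read from the data), and with the embryo as a block the regional counts changed. In controls 4 members were then higher medially, Cox6b2, Ndufv3, Sdhd and Uqcr10, and 8 lower, Cox5a, Cox7a2, Ndufa8, Ndufb10, Ndufb7, Ndufb9, Ndufv1 and Uqcrc2 (48.9% of all tested genes called, 26.5% higher and 22.4% lower). In mutants Sdhd was then higher and 7 were lower, Cox7a1, Cox7a2, Ndufa11, Ndufa8, Ndufb10, Ndufv3 and Uqcrc2 (39.1% called, 18.4% higher and 20.7% lower). Between genotypes the block gave 2 higher and 6 lower members dorsally (36.8% of all tested genes called, 9.93% higher and 26.9% lower) and 1 higher and 7 lower medially (39.9% called, 9.36% higher and 30.5% lower). Ndufv3 was higher medially in 5 of 5 control embryos and lower medially in 4 of 4 mutant embryos. Neuron markers summed to 4516 ± 449 TPM in control medial and 6219 ± 300 TPM in control dorsal cortex (SD, n = 5 and 6), and their part in these differences was not tested.

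The direction of the members called between genotypes turned with the scaling of the libraries. As deposited, 1 member was higher and 6 lower dorsally and 0 higher and 8 lower medially. With each library divided by its median ratio to the other libraries, 12 were higher and 0 lower dorsally (29.8% of all tested genes called, 15.6% and 14.2%). Medially 9 were higher and 1 lower, Ndufv3 (32.8% called, 16.1% and 16.7%). The members' median log2 change was then 0.079 and 0.089, against -0.016 and -0.017 over all tested genes. As deposited it was -0.01 and -0.02, against -0.10 and -0.11. The median of the members thus lay above that of all tested genes in either case. With histone, mitochondrial and small RNA names dropped before rescaling, 14 were higher and 1 lower, Cox7a2l, dorsally (13.6% and 16.2%) and 7 higher and 1 lower, Ndufv3, medially (12.8% and 20.3%). Cox5a, Cox7a2, Cox8a, Ndufa12, Ndufb6, Ndufs8 and Sdhd were among the higher members of both regions under both of these scalings. Histone names made up 11.9 ± 1.04% of TPM in mutant dorsal and 7.10 ± 0.563% in control dorsal libraries (SD, n = 4 and 6), and 13.1 ± 0.071% in mutant medial and 8.38 ± 0.751% in control medial libraries (SD, n = 4 and 5).

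**Figure D5:**
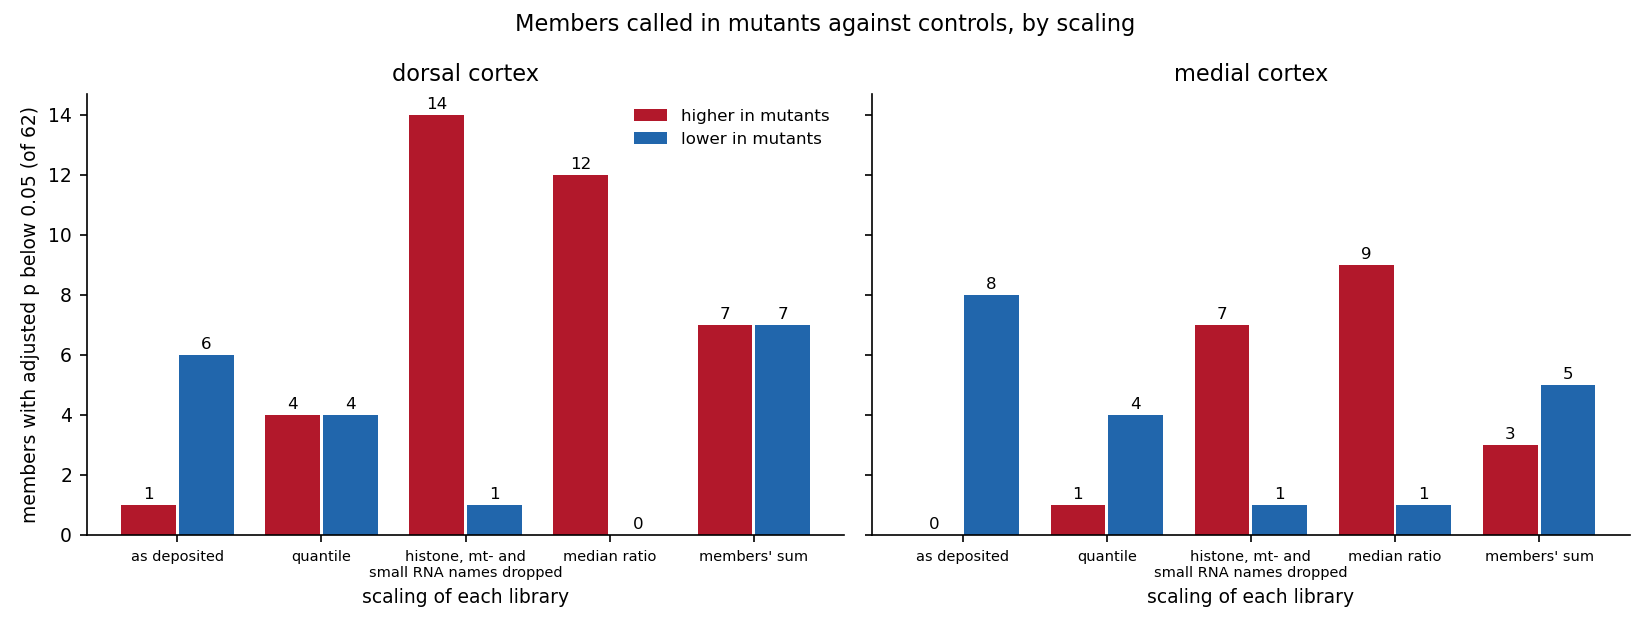
Members with an adjusted p below 0.05, of 62 tested, higher or lower in mutants than in controls, under 5 scalings of the libraries, in dorsal and medial cortex. The counts are 1 higher and 6 lower dorsally and 0 higher and 8 lower medially as deposited, and turn to 12 and 0, and 9 and 1, with median-ratio rescaling.

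A further scaling, chosen after seeing the data, set each library to the same member sum, which by construction makes higher and lower members offset each other. On it 7 members were higher and 7 lower dorsally (28.2% of all tested genes called, 8.56% higher and 19.7% lower), and 3 higher and 5 lower medially (29.3% called, 8.59% and 20.7%). Cox7a2l, Ndufa6, Ndufa7 and Uqcrh were lower in mutants of both regions on this scale, and Cox7a2 and Cox8a higher in both. On this scale a change is relative to the family as a whole.

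Genes that work with the chain were described from lists of the pathway. None of the 13 mitochondrially encoded subunits passed in either region, with a median log2 change of -0.09 dorsally and -0.25 medially; mt-Nd1 had -0.10 ± 0.15 and mt-Co1 -0.25 ± 0.22 medially, standard errors well above those of the members. Of 18 nuclear ATP synthase genes, none passed dorsally and 1 was higher medially, Atp5b (0.08 ± 0.03, adjusted p = 0.0496 by limma). Cycs, the somatic cytochrome c that links complexes III and IV, was higher in mutants, at 101 ± 4.80 TPM in mutant dorsal and 93.5 ± 2.67 TPM in control dorsal cortex (SD, n = 4 and 6; log2 change 0.11 ± 0.04, adjusted p = 0.0269 by limma), and by 0.12 ± 0.04 medially (adjusted p = 0.0236 by limma). Ndufab1, the acyl carrier protein of complex I that the naming rule does not take in, was higher dorsally (0.14 ± 0.04, adjusted p = 0.0169 by limma).

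Most assembly factors that passed were lower in mutants, as were most of all tested genes that passed (27.6% lower and 9.93% higher dorsally, 30.2% and 9.44% medially). Of 15 complex I assembly genes, 3 were lower in each region, among them Ecsit dorsally (-0.19 ± 0.03, adjusted p = 0.000239 by limma). Of 10 genes for the assembly of complexes II and III, 1 was higher and 3 lower dorsally and 4 were lower medially. Ttc19, which acts late in complex III maturation, had 16.9 ± 1.25 TPM in mutant dorsal and 22.2 ± 1.95 TPM in control dorsal cortex (SD, n = 4 and 6; -0.37 ± 0.07, adjusted p = 0.000299 by limma) and changed by -0.31 ± 0.07 medially (adjusted p = 0.00157). Of 23 complex IV assembly genes, 1 was higher and 3 lower dorsally and 4 lower medially, with Surf1 lower in both regions (-0.24 ± 0.05 and -0.21 ± 0.05, adjusted p = 0.00123 and 0.00415 by limma). These counts are 17.4 to 40% of the lists, against 37.5% of all tested genes dorsally and 39.6% medially.

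The counts of regulators and neighbouring pathways can be read against all tested genes, of which 9.93% were higher and 27.6% lower dorsally and 9.44% and 30.2% medially. Of 13 regulators of mitochondrial biogenesis, 1 was higher and 2 lower dorsally and 2 higher and 2 lower medially. Gabpb1, a subunit of the ETS factor GABP, was higher in both regions (0.30 ± 0.05 and 0.25 ± 0.06, adjusted p = 0.000271 and 0.00171 by limma), and Esrra, a nuclear receptor that drives genes of oxidative metabolism, was lower in both (-0.15 ± 0.05 and -0.22 ± 0.05, adjusted p = 0.0301 and 0.00362). Nrf1 was higher medially (0.17 ± 0.06, adjusted p = 0.0239 by limma) and had 0.14 ± 0.05 dorsally (adjusted p = 0.0505), Ppargc1a had -0.11 ± 0.11 and -0.09 ± 0.11, and Tfam, the mitochondrial DNA packaging factor, -0.03 ± 0.03 and -0.02 ± 0.03. In the coenzyme Q list of 13, Coq9 was lower (-0.34 ± 0.06 and -0.24 ± 0.06) and Coq7 higher (0.28 ± 0.06 and 0.26 ± 0.06) in both regions. Of 77 mitochondrial ribosome genes, 11 were higher dorsally, and 9 were higher and 2 lower medially, 14.3% of the list in each region. Mrpl13, a large-subunit protein, was at 32.4 ± 0.892 TPM in mutant dorsal and 25.9 ± 1.27 TPM in control dorsal cortex (SD, n = 4 and 6; 0.31 ± 0.05) and changed by 0.26 ± 0.05 medially. Of 18 tricarboxylic acid cycle genes, 3 were lower dorsally and 4 medially, with Idh3b, a subunit of isocitrate dehydrogenase, lower in both regions (-0.15 ± 0.04 and -0.11 ± 0.04, adjusted p = 0.00237 and 0.0214 by limma). Of 20 glycolysis genes, 2 were higher and 6 lower dorsally and 2 higher and 7 lower medially, 40% and 45% of the list and near the 37.5% and 39.6% of all tested genes. The lowest adjusted p was that of Aldoc (-1.08 ± 0.11 and -1.34 ± 0.11, adjusted p = 6.48e-07 and 1.5e-07 by limma).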

How the data were processed

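The authors deposited 1 table of TPM, whose columns each sum to 1000000, on genome build mm10 per the submitters' processing notes. Per the labels' protocols, an RNeasy Micro kit gave the RNA and a TruSeq Stranded Total RNA kit the libraries. The sources used here do not give the aligner, the quantifier or the strand setting. The depth is unknown, so no counting error can be given.

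Groups were taken from the titles. The 13520 genes that reached 1 TPM in 4 or more libraries entered a fit on log2(TPM + 1) by limma 3.58.1 under R 4.3.3 (statmod 1.5.0 for blocks), with 1 mean per group over all 19 libraries, a mean-variance trend and robust moderation. Adjusted p-values follow Benjamini and Hochberg over all tested genes of a comparison, with a threshold of 0.05. The fit was tested on simulated data. The 5 comparisons were mutant against control in each region, the difference of these effects, and medial against dorsal cortex in each genotype. Errors are SD over libraries or limma standard errors.

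Within a genotype, the medial and dorsal libraries with 1 title number deviated from their group means together in all 9 pairs (r = 0.549 to 0.795). Title numbers were therefore taken as embryos, which rests on the data and not on a label. The numbers in the description field differ for control medial libraries and gave r = -0.438 to 0.0469 in 5 pairs. Across genotypes the numbers did not pair libraries (r = -0.436 to 0.138 in 7 pairs). Sex was assigned from whichever of Xist and Ddx3y was higher.

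Alternatives were blocks by embryo or title number, another pseudocount (0.1), other filters, other scalings, sex as a covariate, plain moderation, fits on the groups compared, and leaving out each library. Named genes are, by rule, the highest and lowest member of each complex, all Sdh genes, up to 4 members past the test per complex and region, up to 6 per regional comparison, isoform pairs, X-linked members and up to 2 genes per list; Ndufa10, Ndufa12, Uqcrc2, the other core subunits and the remaining names were chosen after their values were seen. The members, lists and tests were chosen with earlier results of these data known. Coordinates are from GENCODE M21 (GRCm38, the assembly of mm10), where all 66 members matched 1 position, and promoters from RefSeq (GRCm38.p6), read with Python 3.11.15. The single-gene results of 1 member and 1 other gene, which the counts include, are not reported here. Plots were drawn with matplotlib 3.10.9. Exons of 3 members, Ndufb2, Ndufb8 and Ndufb9, overlap another gene on the same strand and those of 19 a gene on the opposite strand.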

Additional observations from a re-analysis of the deposited data

Results flagged for a closer look

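Among 131 sets of values (each named member or complex sum in each group), 10 held a library far from the rest of its group, where chance gives about 1 in 20. In mutant medial cortex, library 1 was high for 4 members: Ndufv3 at 55.1 TPM (others 47.6 to 48.4 TPM), Ndufa7 at 140 TPM (others 111 to 114 TPM), Uqcrq at 71.9 TPM (others 56.8 to 58.9 TPM) and Cox6b1 at 730 TPM (others 634 to 650 TPM). This library also had the lowest sum of mitochondrially encoded subunits, 18660 TPM. Without it, 10 members were lower and none higher in mutant medial cortex, against 8 lower with it. Ndufb2, a complex I accessory subunit whose exons overlap another gene on the same strand, was high in mutant dorsal library 4 at 25.9 TPM (others 22.0 to 22.3 TPM) and in control dorsal library 6 at 28.3 TPM (others 24.3 to 25.4 TPM).

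The other 4 concern isoforms near 0, where the remaining libraries of the group were listed at 0. Cox6a2 was at 0.144 TPM in mutant dorsal library 4 and at 0.131 TPM in control dorsal library 4, Cox7b2 at 0.348 TPM in control dorsal library 3 and Cox8c at 0.237 TPM in control dorsal library 2.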

How the results depend on the processing

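Scaling moved most counts between genotypes, given here as members higher and lower in mutants. Median-ratio rescaling gave 12 and 0 dorsally and 9 and 1 medially. The members' median changes were 0.079 and 0.089, against -0.016 and -0.017 over all tested genes. Dropping histone, mitochondrial and small RNA names gave 14 and 1 dorsally and 7 and 1 medially. The members' medians were 0.060 and 0.055, against -0.036 and -0.049 over all tested genes. Quantile normalization gave 4 and 4 dorsally and 1 and 4 medially and shifted the medial median of all genes to -0.01, against -0.11 as deposited. Scaling to the member sum, chosen after seeing the data, gave 7 and 7 dorsally and 3 and 5 medially. Sex as a covariate gave 3 and 4 dorsally and 1 and 2 medially, with the counts over all tested genes given above. The stricter filter gave 0 higher dorsally, with 59 members tested. Cox6b2, the only higher member as deposited, was not among them. Of 11026 genes tested there, 1256 were higher and 3502 lower. No filter gave 5 lower medially (1265 higher and 3832 lower of 24353 tested genes). Fitting only the groups compared gave 3 lower dorsally, where fewer libraries entered (1237 higher and 3399 lower of 13520 tested genes). That fit has no value for the difference between regions. Direction reversed with median-ratio rescaling for Ndufa10 dorsally (0.0064), and with quantile normalization for Atp5b medially (-0.017).

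With the embryo as a replicate block, 2 members were higher dorsally and 1 medially in mutants; between regions 4 were higher and 8 lower in controls and 1 higher and 7 lower in mutants. With the title number as a block, these were 2, 1, 4 and 4, and 0 and 2. That block joins mutants and controls of the same number, which the data did not pair. Among all 13520 tested genes it gave 1442 higher and 3776 lower dorsally and 1313 higher and 3931 lower medially. Between regions it gave 2731 higher and 2248 lower in controls and 1492 higher and 1716 lower in mutants.

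Between regions, controls had 1 higher member with no filter, the stricter filter, median-ratio rescaling or plain moderation. They had 1 lower with no filter, median-ratio rescaling, dropped names, sex or plain moderation, and 4 lower with quantile normalization or the member sum. Under the scalings, including the member sum, 15.2 to 19.3% of all tested genes were higher and 10.3 to 17% lower in controls. In mutants the lower count was 0 with no filter, these 3 scalings, the member sum or only the groups compared, and the member sum gave 1 higher. Under the scalings, 6.83 to 9.62% of all tested genes were higher and 6.28 to 10.4% lower in mutants. With no filter, 845 of 24353 were higher and 1157 lower. In the fit on only the groups compared, none of all 13520 tested genes passed between mutant regions. That 0 is therefore not particular to the members.

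Leaving out 1 library gave 0 to 3 higher and 2 to 8 lower dorsally, 0 to 1 higher and 3 to 10 lower medially, 1 to 2 higher and 1 to 2 lower in control regions and 0 to 2 lower in mutant regions. The 2 came without mutant dorsal library 3 and the 3 without mutant medial library 3; without control medial library 2 or mutant medial library 2 or 4, 4 members were lower medially, and without control medial library 3, 4 or 6, 5 were. Without control dorsal library 6 or mutant dorsal library 2, 3 members were higher dorsally, and without mutant dorsal library 1 none was. The causes were not tested. TPM without counts leave the error of low isoforms unknown. Of the calls between genotypes, Ndufv3 medially and Cox6b2 dorsally passed under every scaling, filter, covariate and block in which they were tested.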
